A study of Ovis aries with 15 samples.

Results

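Promoters that carry H3K4me3 and H3K27me3 together, commonly called bivalent, were compared between perirenal fat of sheep fetuses and of lambs. They were taken as the 3522 genes listed in both the deposited H3K4me3 promoter table (12922 genes) and the deposited H3K27me3 promoter table (6334 genes), joined by gene identifier. This is 3522 of the 15734 genes in either table and of the 18460 genes in any of the 3 promoter tables. A gene symbol was given for 2633 of them, an Ensembl identifier alone for 699, and a name with coordinates, as copies of small RNAs and pseudogenes have, for 190. Every gene of a table reached at least 50.7 deposited units of H3K4me3, or 51.5 of H3K27me3, in some library. Of the 3522 genes, 2872 held 50 units of both marks in every library used, so the remaining genes were bivalent by this measure in only some of the animals. H3K27me3 reached 50 units in at least 1 fetus and no lamb at 109 genes, and in at least 1 lamb and no fetus at 69. The same counts for H3K4me3, with lamb 3 among the lambs, were 27 and 44. All 3522 genes were tested, with no filter on low values.

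H3K4me3 is placed by trithorax-group methyltransferases at promoters that are active or ready for use, and H3K27me3 is placed by Polycomb repressive complex 2 at genes that are held silent. Promoters of developmental regulators often carry both marks in stem and progenitor cells. Such a promoter is said to resolve when a cell keeps H3K4me3 and loses H3K27me3, or the reverse. Fat around the kidney of sheep is thermogenic, brown-like fat around birth and becomes white fat as the lamb grows.

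Chromatin came from purebred merino, wild-type animals with no treatment, per the labels: fetuses at 132 days of gestation, and lambs whose age is 80 days in the stage label and 89 ± 7 days in the growth protocol. The lamb titles carry the tag VEH and the fetal titles do not, so what this tag stands for and stage cannot be told apart, and sex is not in the labels. Fetuses 1 and 2 and lambs 1 and 2 are separate animals that each gave an H3K4me3, an H3K27me3 and an H3K27ac library, while lamb 3 gave H3K4me3 only. Chromatin was digested with micrococcal nuclease to fragments of about 150 bp and immunoprecipitated with 10 µg of antibody. The pooled input libraries have no values in the promoter tables. In a tissue made of several cell types, fewer cells of a type and less of a mark per cell cannot be told apart, and the presence of both marks at a promoter does not show that they lie in the same cell or on the same nucleosome.

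The depth differed strongly between marks. Promoter reads numbered 324662 to 430345 per H3K27me3 library and 2476065 to 17541582 per H3K4me3 library, and the median bivalent gene had 45 to 62 H3K27me3 reads and 131 to 466 H3K4me3 reads. The tissue label was checked on fat genes: in H3K27ac, ADIPOQ (adiponectin) stood at percentile 94.3 to 96.1 of all promoters in the 4 libraries, PLIN1 (the perilipin coat of the lipid droplet) at 89.6 to 99.3, and FABP4 (a fatty acid carrier) at 88.1 to 99.6. Other fat genes stood lower there, with UCP1 at a median percentile of 49.4 and LEP at 20.3, and the 35 listed adipocyte genes had a median percentile of 65.3 in H3K27ac and, for 33 genes, 42.3 in H3K4me3. The H3K4me3 libraries of lambs 2 and 3 stand apart. Over the bivalent genes the SD of log2 H3K4me3 ranged from 1.14 to 1.58 in the fetuses and lamb 1. It was 0.68 in lamb 2 and 0.76 in lamb 3. For H3K27me3 the SD was 1.19 and 1.21 in the fetuses and, somewhat narrower, 1.11 and 1.04 in the lambs. Low H3K4me3 values were therefore higher, and high values lower, in the lambs than in the fetuses, and the levels are given beside the main results. The part of this narrower range in the results was not tested, apart from an alternative that gives every library of a mark the same spread.

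**Figure D1:**
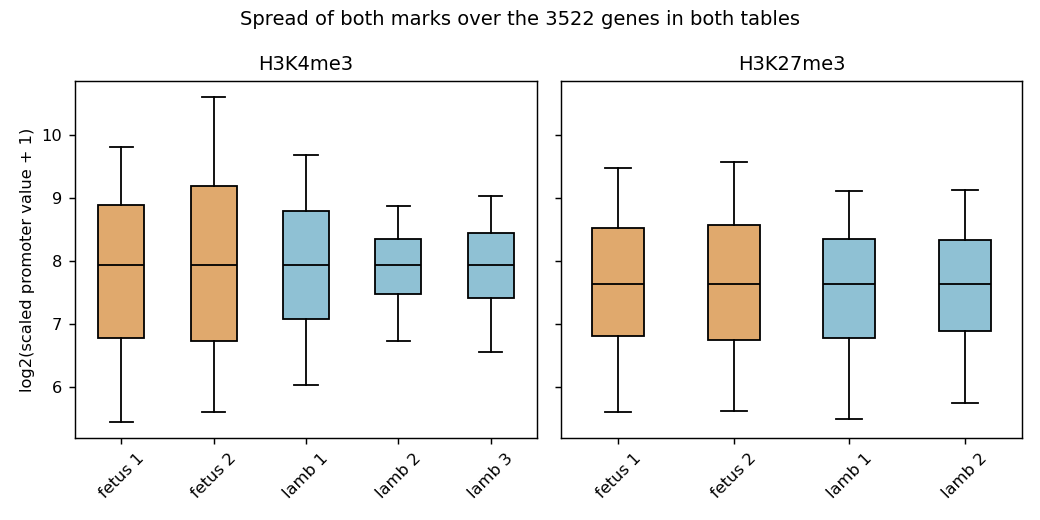
Log2(scaled promoter value + 1) of the 3522 genes in each H3K4me3 (left) and H3K27me3 (right) library; boxes span the interquartile range, lines mark medians and whiskers the 5th and 95th percentiles. H3K4me3 covers a narrower range in lamb 2 (SD 0.68) and lamb 3 (0.76) than in the fetuses (1.37 and 1.58). H3K27me3 ranges differ less, with SDs of 1.19 and 1.21 in the fetuses and 1.11 and 1.04 in the lambs.

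The balance of an animal is log2(H3K4me3 + 1) minus log2(H3K27me3 + 1), after each library was scaled to its median over the 3522 genes. A positive balance means more H3K4me3 relative to other bivalent genes, and not more H3K4me3 than H3K27me3 in absolute terms, since the marks were measured with different antibodies. The balance separated genes far more than animals: its Pearson correlation across the 3522 genes, a description over genes that share libraries, was 0.85 to 0.91 for every pair of animals. Levels of the marks were nearly unrelated, with a Spearman correlation across genes of 0.12 for the means of the 4 animals and -0.0031 to 0.35 within an animal.

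Few bivalent promoters passed the test of a stage difference in balance. In limma with Benjamini-Hochberg adjustment, 2 of 3522 genes passed the threshold of 0.05 (0.0568% of those tested), 1 with a balance that rose toward H3K4me3 and 1 with a balance that fell toward H3K27me3. An unadjusted p under 0.05 was reached by 451 genes, 301 of them higher and 150 lower in lambs. Both lambs lay above both fetuses at 972 genes (27.6%) and below both at 584 (16.6%). With no stage difference, such separation of 2 against 2 animals would be expected at a share of 0.333 of genes, divided evenly between the directions. The share below both fetuses was no larger than this gives for 1 direction. Counts of genes without overlap are therefore a description and not a test, as all genes share the same animals. Data were simulated with the same gene means and 1 noise level per mark in all libraries, without the narrower H3K4me3 range of lamb 2. There the same test recovered 10% of balance changes of log2 1, 71% of log2 2 and 94% of log2 3 among 3522 genes. Changes of log2 1 were thus mostly below its reach in the simulation, and recovery at the real spread was not tested. The counts in the real data are relative to the median bivalent gene. Relative to the median of all promoters in each table, the median balance change moved from 0.15 to 1.00, the genes with a positive change from 2039 to 3155, and the non-overlapping genes to 2202 higher and 96 lower. In the deposited values without further scaling, 346 genes were higher and 1092 lower, and after TMM scaling 770 and 724, so the split between the directions rests on the scaling.

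GSN encodes gelsolin, which severs and caps actin filaments, and it was the bivalent gene that moved to H3K4me3. Its H3K27me3 was 182 and 175 scaled units in the fetuses and 37.5 and 8.78 in the lambs. The lamb values at GSN stand for few reads, as 1 read is 3.57 and 3.55 deposited units in lambs 1 and 2. Both lamb values lay under 50 deposited units, so GSN is among the 109 genes that reached 50 in a fetus and no lamb. GSN thus entered the H3K27me3 table through its fetal values, and a fall in lambs was favoured by this choice. Its H3K4me3 was 132 and 113 in the fetuses, 168 and 199 in lambs 1 and 2, and 194 in lamb 3. All lamb values thus lay below the fetal ones in H3K27me3 and above them in H3K4me3. The balance went from -0.46 and -0.62 to 2.14 and 4.35, a change of 3.79 (SE 0.74, limma adjusted p = 0.000498). In its own table, against all promoters, H3K27me3 at GSN fell by 3.51 on the log2 scale (limma adjusted p = 0.000223) and stayed past the threshold whichever animal was left out. H3K27ac, which the balance does not use, rose by 0.43 at GSN (adjusted p = 0.0258), from 191 and 192 to 266 and 251, a call lost in 2 of 4 fits that left out an animal. The balance call rests on a mean of 31 H3K27me3 reads and on several libraries: the adjusted p was 0.196 without fetus 1, 0.707 without fetus 2 and 0.374 without lamb 2, with changes of 3.87, 3.70 and 2.68.

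The gene that moved to H3K27me3 is listed as ENSOARG00000010694, without a symbol. Its H3K4me3 was 758 and 331 in the fetuses, 58.2 and 95.3 in lambs 1 and 2, and 116 in lamb 3. Its H3K27me3 was 95.6 and 35.6 in the fetuses and 239 and 132 in the lambs. This H3K27me3 signal had a mean of 35.25 reads, and few in fetus 2, where 1 read is 3.46 deposited units. Every lamb value lay outside the fetal range in both marks. The balance went from 2.97 and 3.18 to -2.02 and -0.46, a change of -4.32 (SE 0.65, limma adjusted p = 9.98e-08). It remained past the threshold without any of the 4 animals (adjusted p up to 0.044). H3K27ac fell there as well, from 230 and 110 to 67.2 and 61.1 (log2 change -1.29, adjusted p = 0.0016). It was also the 1 bivalent gene with H3K4me3 called lower and H3K27me3 called higher when the marks were fitted separately, although the H3K27me3 call held in 2 of 4 and the H3K4me3 call in 3 of 5 fits without a library.

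The genes that came nearest to the threshold with a balance higher in lambs form a mixed group, and all missed it (adjusted p = 0.062 to 0.082). S100A4, a calcium-binding protein of fibroblasts and immune cells, had 332 and 415 units of H3K27me3 in the fetuses and 181 and 149 in the lambs. Its H3K4me3 was 117 and 59.9 in the fetuses and 145, 176 and 157 in lambs 1 to 3, and its balance change was 2.09 (SE 0.52). S100A6, a relative of it, had H3K27me3 of 322 and 318 against 81.8 and 119, with H3K4me3 of 206 and 169 against 241, 236 and 281 (balance change 2.04, SE 0.57). The fetuses and lambs did not overlap in either mark at these genes. In the ARS-UI_Ramb_v3.0 assembly of RefSeq, used here for names and neighbours only, S100A6, S100A5, S100A4 and S100A3 stand next to each other in this order on chromosome 1. S100A5 and S100A3, looked up after the values of their neighbours were seen, had balance changes of 1.12 (adjusted p = 0.36) and 1.59 (adjusted p = 0.204). H3K27me3 fell at all 4 in the whole-table fit (log2 -1.21 to -2.01, adjusted p = 6.39e-05 to 0.00896), and at S100A4 and S100A6 it did so whichever animal was left out, but at S100A5 in 3 of 4 and at S100A3 in 2 of 4 fits. H3K27ac rose at S100A4 (0.81), S100A5 (0.84) and S100A6 (0.52), with the S100A6 call lost in 2 of 4 fits without an animal, while S100A3 had a change of 0.25 (adjusted p = 0.264). Neighbouring promoters may share reads, as the width of the windows is not stated.

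RUNX1, a transcription factor of blood cell development, had H3K27me3 of 701 and 671 in the fetuses and 208 and 395 in the lambs. Its H3K4me3 was low and overlapped (58.2 and 170 against 111, 177 and 179), and its balance change was 1.75 (SE 0.46, adjusted p = 0.062). The H3K27me3 fall at RUNX1 was called on its own (log2 -1.57, adjusted p = 6.39e-05). CELF5, an RNA-binding splicing regulator, had one of the lowest H3K4me3 levels of the set (percentile 2.73), at 28.8 and 49.2 in the fetuses against 52.0, 145 and 117 in the lambs, and a balance change of 1.72. MANBAL had H3K27me3 of 408 and 441 against 211 and 259 and a balance change of 1.79 (adjusted p = 0.082).

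The genes nearest to the threshold in the other direction were also of mixed kinds, and all missed it. ADRB3, the beta-3 adrenergic receptor through which noradrenaline drives lipolysis and heat production in fat, had H3K4me3 of 803 and 1104 in the fetuses and 408, 329 and 319 in the lambs. Its H3K27me3 was 188 and 207 in the fetuses and 341 and 246 in lambs 1 and 2. Each mark separated the stages, and the balance went from 2.09 and 2.41 to 0.26 and 0.42 (change -1.91, SE 0.53, limma adjusted p = 0.082, range over the alternatives 0.0275 to 0.804). H3K4me3 at ADRB3 fell by 0.85 in its whole-table fit (adjusted p = 0.0417, from 0.0203 to 0.438 with a library left out), and H3K27ac fell by 0.68 (adjusted p = 0.004, up to 0.169 with an animal left out).

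SDC4, a heparan sulphate proteoglycan of the cell surface, had H3K4me3 of 610 and 960 in the fetuses and 315, 319 and 285 in the lambs (balance change -2.15, adjusted p = 0.119). SIRT6, a NAD-dependent deacylase of histones, had H3K27me3 of 95.6 and 87.5 against 198 and 224 (change -2.09, adjusted p = 0.089). RRM2, the small subunit of ribonucleotide reductase that makes DNA precursors, had a change of -2.10 (adjusted p = 0.124), with H3K4me3 of 299 and 783 against 216, 247 and 218. NMRK2, a kinase that turns nicotinamide riboside into NAD precursor, had a change of -1.85 (adjusted p = 0.124) and fell in H3K27ac (log2 -0.77, adjusted p = 0.00974, up to 0.173 with an animal left out). All of these were chosen among genes with no overlap of the balance between the stages. WT1-AS_7, a segment of the antisense transcript of the mesothelial and kidney regulator WT1, had a change of -1.56 (adjusted p = 0.124). The other 5 listed WT1-AS segments, looked up after seeing this value, ranged from -0.72 to -1.38 and WT1 itself was at -0.78. These windows lie at a common locus and may share reads, so they count as 1 observation.

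**Figure D2:**
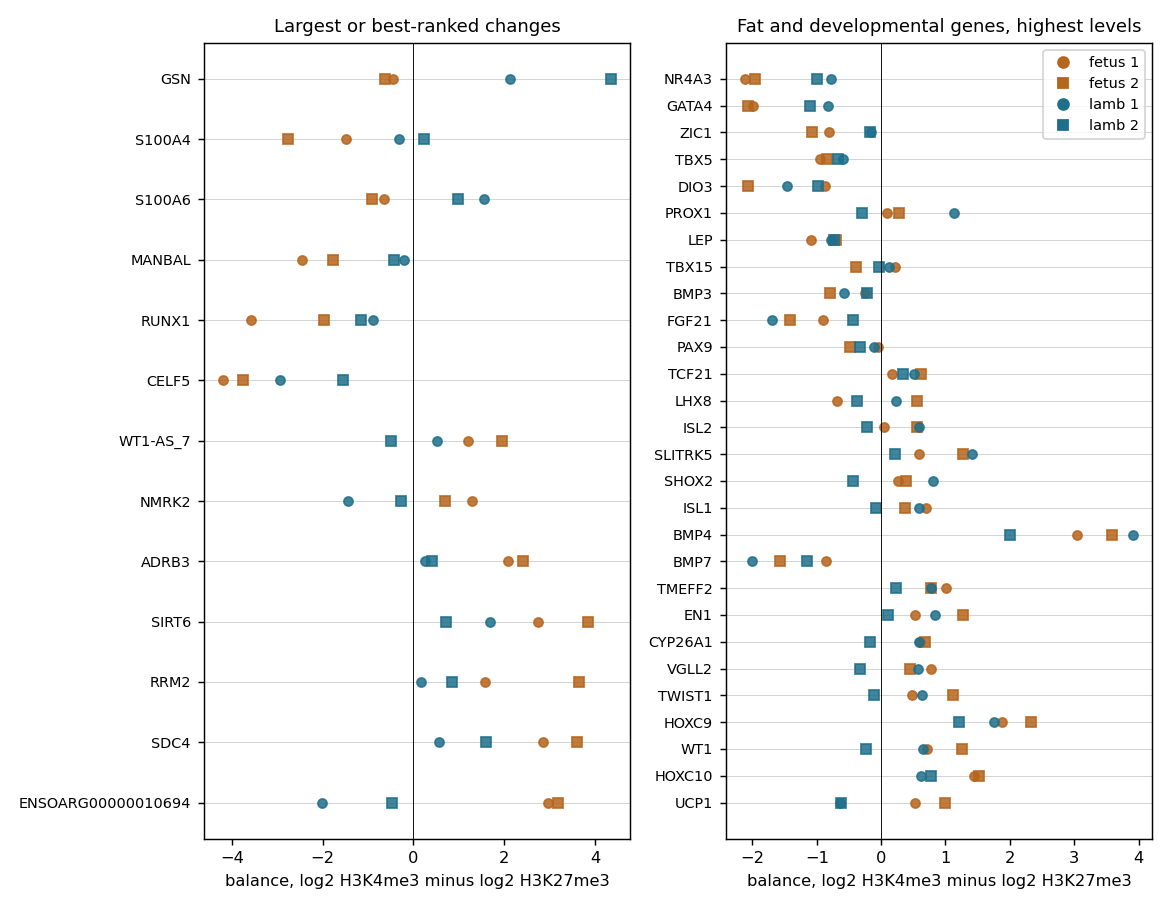
Balance (log2 H3K4me3 minus log2 H3K27me3, scaled) of each animal at the genes with the largest or best-ranked changes (left) and at genes of fat and development with the genes highest in both marks (right), sorted by change. GSN and ENSOARG00000010694 are the genes past the threshold (changes 3.79 and -4.32), and most genes on the right overlap between the stages.

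The marks were also tested separately, each over its whole table, which sets the bivalent genes against all other promoters with the mark. H3K27me3 fell at 924 of the 3522 bivalent genes (26.2%, against 15.7% of the whole table) and rose at 30 (0.852%, against 2.53%). H3K4me3 rose at 696 (19.8%, against 11.3%) and fell at 19 (0.539%, against 1.62%). The median change of H3K27me3 was -0.44 at bivalent genes and 0.20 at the 2812 genes with H3K27me3 but no H3K4me3 entry. The median change of H3K4me3 was 0.53 at bivalent genes and -0.19 at the 9400 genes of its table without an H3K27me3 entry. The bivalent genes had the lower fetal H3K4me3, with deposited medians of 366 and 233 in fetuses 1 and 2 against 659 and 783 at the others, and low values were higher in the lambs' narrow range. They had the higher fetal H3K27me3, with deposited medians of 213 and 211 against 134 and 135 at the other genes of its table. In lambs 1 and 2 these medians were 207 and 160 against 189 and 153. The part of these levels in the shares called was not tested. The counts moved strongly with single libraries. H3K27me3 fell at 303 bivalent genes without fetus 1 and at 217 without fetus 2, and at 533 after TMM scaling. H3K4me3 rose at 1379 bivalent genes without fetus 1, 319 without fetus 2, 28 without lamb 2 and 7 without lamb 3.

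H3K4me3 rose and H3K27me3 fell together at 108 bivalent genes, the pattern of resolution toward H3K4me3, and the opposite pattern was called at 1. Their median balance change was 1.13. Of these 108, 13 were measured for H3K27ac, and it was called higher by limma at 10 and lower at 0 (against 19.5% and 10.3% of all bivalent genes measured). Over all bivalent genes, the H3K27ac rises numbered 373, but 36 without lamb 1 and 45 without lamb 2. The group held GSN, S100A4 and S100A6, and among genes looked up after their values were seen CD274 (the immune checkpoint ligand PD-L1, balance change 2.56, H3K4me3 percentile 17.0) and S100B (1.64, percentile 34.6). It also held regulators of tissues other than fat: CDX2 of the gut (1.55), LHX5 (1.53), DBX1 (1.53), NEUROD2 (1.38), NKX6-1 (1.17) and OTX2 (1.06) of the nervous system. LHX5 shows the form of these changes: H3K4me3 of 51.9 and 39.7 in the fetuses and 70.1, 179 and 168 in lambs 1 to 3, against H3K27me3 of 736 and 823 and then 685 and 632. The H3K4me3 percentile of these 6 regulators among bivalent genes ran from 6.16 at LHX5 to 58.9 at OTX2. At all 6, H3K4me3 was higher in lambs 2 and 3, the libraries with the narrow range, than in lamb 1. The count of 108 was 0 without lamb 3 (whose removal left 7 bivalent genes with H3K4me3 called higher and 1 called lower at an adjusted p under 0.05, and 1428 promoters in the whole table at an unadjusted one), 2 without lamb 2, 6 without fetus 2, 174 without lamb 1 and 42 after TMM scaling.

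H3K27me3 fell without an H3K4me3 call at 810 genes (median balance change 0.38), and H3K4me3 rose without an H3K27me3 call at 572 (0.71). H3K4me3 fell alone at 12 genes, among them ADRB3 and PLIN1. PLIN1, named after its values were seen, had H3K4me3 of 740 and 2021 in the fetuses and 391, 333 and 321 in the lambs, with H3K27me3 that overlapped between the stages (128 and 130 against 174 and 101). The H3K4me3 call at PLIN1 held in 2 of 5 fits without a library. Its balance change of -1.80 missed the threshold (adjusted p = 0.176). H3K27me3 rose alone at 13 genes, among them the clotting factor gene F10, with H3K27me3 of 41.4 and 32.4 against 235 and 92.2 (balance change -2.43, adjusted p = 0.089). F10 had a mean of 28 H3K27me3 reads, and its H3K27me3 call held in 1 of 4 fits without an animal. Both marks rose at 16 genes and both fell at 6.

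**Figure D3:**
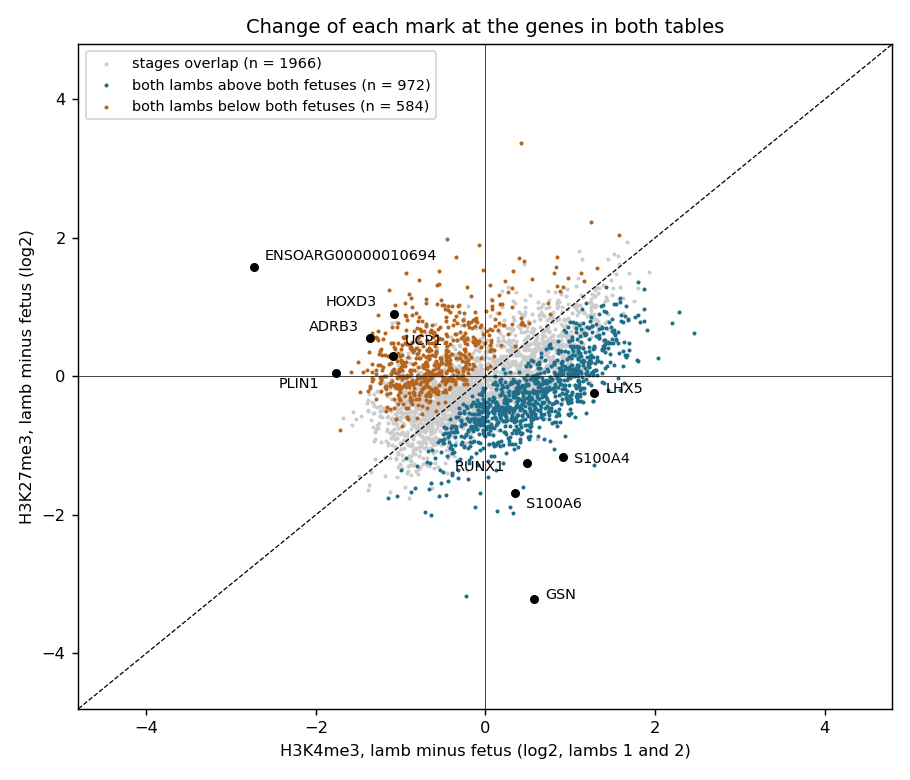
Change of H3K27me3 (vertical) against change of H3K4me3 (horizontal) in log2, lambs 1 and 2 minus fetuses, at the 3522 genes; on the dashed diagonal the balance does not change. Blue points are the 972 genes with both lambs above both fetuses and orange the 584 with both below; GSN and ENSOARG00000010694 lie farthest from the diagonal on either side.

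The change of each mark entered the balance in different ways. Among the 972 genes with both lambs above both fetuses, 511 had higher H3K4me3 and lower H3K27me3, 276 had more of both marks and 185 less of both, relative to the median bivalent gene. Among the 584 genes with both lambs below both fetuses, 354 had lower H3K4me3 and higher H3K27me3, 170 had less of both and 60 more of both. Across all 3522 genes the changes of the marks went the same way more than opposite ways (Spearman 0.39 across genes, a description over 4 shared animals).

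H3K27ac marks active promoters and was measured at 1910 of the bivalent genes in the same animals. It rose at 373 (19.5%, against 9.51% of its table) and fell at 196 (10.3%, against 20.5%). The count of rises was 36 without lamb 1, 45 without lamb 2 and 734 without fetus 1, and the count of falls was 96 without lamb 1 and 108 without lamb 2. Among the 301 genes with an unadjusted p under 0.05 and a higher balance in lambs, 67 were in the H3K27ac table, where it rose at 32 and fell at 1. Among the 150 with a lower balance, 139 were in that table, where it rose at 3 and fell at 52. Across the 1910 genes the balance change and the H3K27ac change had a Spearman correlation of 0.45, a description over genes from shared animals.

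The direction of the balance change went with the level of the marks, a description that uses the same libraries for both. In the quartile of genes with the least H3K4me3 the median balance change was 0.54, in the next quartiles 0.39 and 0.036, and in the quartile with the most it was -0.44. The median H3K4me3 of the lowest quartile was 67.1 and 70.7 in the fetuses and 95.2, 147 and 129 in lambs 1 to 3, and that of the highest was 659 and 958 against 603, 373 and 417. The quartiles by H3K27me3 ran the other way, from -0.16 in the lowest to 0.44 in the highest. After every library of a mark was given the same spread, a step added after seeing the data, 43 genes passed, 19 higher and 24 lower.

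Homeobox genes outside the HOX clusters, classical bivalent genes of development, often had less H3K27me3 in lambs. Of 110 in the list, 83 were bivalent here, and H3K27me3 fell at 61 of them and rose at none (limma, whole table), against 26.2% of all bivalent genes. With an animal left out the count was 15 to 64, and 37 after TMM scaling. The 83 genes were rich in H3K27me3 (median percentile 89.8 of the bivalent genes). In the quartile of all bivalent genes with the most H3K27me3 its median change was -0.35, against 0.049 in the lowest quartile. The part of this level in the falls was not tested. No member of the homeobox list passed the balance test, in which 11 had an unadjusted p under 0.05 with a higher and 4 with a lower balance. Their median balance change was 0.094 (0.95 when scaled to all promoters, -0.018 after TMM and -0.33 unscaled), with 28 genes higher and 11 lower without overlap. Relative to other bivalent genes both their marks were lower in lambs, with medians of -0.37 for H3K4me3 and -0.44 for H3K27me3. LHX8, a LIM-homeobox regulator linked to brown fat, shows this: H3K27me3 of 893 and 842 in the fetuses and 416 and 589 in the lambs, H3K4me3 of 555 and 1239 against 486, 455 and 438, and a balance change of -0.0094. H3K27ac at LHX8 fell by 1.04 (adjusted p = 0.00029). Transcription factors of the SOX, GATA, T-box, forkhead and ZIC families had H3K27me3 falls at 23 of 39 (6 to 27 with an animal left out), and developmental bHLH factors at 16 of 30 (3 to 17), against 26.2% of all bivalent genes. These lists were rich in H3K27me3 too, with median percentiles of 83.1 and 78.8.

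GATA4, a regulator of mesoderm and endoderm organs, had H3K27me3 of 826 and 940 in the fetuses and 382 and 523 in the lambs, with H3K4me3 that stayed close (207 and 224 against 216, 242 and 224). Its balance change was 1.07 (SE 0.43, adjusted p = 0.243). NR4A3, an orphan nuclear receptor, had H3K27me3 of 998 and 1047 against 484 and 782 and a balance change of 1.15 (adjusted p = 0.194). ZIC1, a marker of brown fat depots, had 685 and 719 against 443 and 400 (balance change 0.77, adjusted p = 0.437). H3K27me3 was called lower at each of these genes on its own (adjusted p = 5.39e-05, 0.00034 and 0.00036).

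The HOX genes, which pattern the body axis and keep their expressed set in adult fat, were split by their place in the cluster. Of 39 HOX genes, 26 were bivalent, and none passed the balance test. The 19 with paralogue numbers up to 10 had a median balance change of -0.64, with 10 lower and 0 higher without overlap, against 16.6% and 27.6% of all bivalent genes. The 7 with numbers 11 to 13 had a median of 0.81, with 5 higher and 0 lower. This grouping was chosen after the values were seen. The group up to 10 was rich in H3K4me3 (median percentile 86.9) and the group 11 to 13 in H3K27me3 (median percentile 97.9). All 19 of the former but none of the latter were in the H3K27ac table. With single animals left out, the median of the group up to 10 was -0.31 without fetus 2 and -0.35 without lamb 2, and that of the group 11 to 13 was 0.42 without fetus 2, with 5 of 7 genes positive. The median of the group up to 10 was 0.22 when scaled to all promoters, 0.005 when each library had the same spread and -0.0051 after cyclic loess, where the group 11 to 13 stayed at 1.67, 0.64 and 0.33.

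HOXB13 had the largest change of the posterior group: H3K27me3 of 931 and 1134 in the fetuses and 692 and 712 in the lambs, H3K4me3 of 167 and 175 against 195, 338 and 304, and a balance change of 1.13 (SE 0.41, adjusted p = 0.197). HOXD3 was at the other end, with H3K4me3 of 188 and 234 against 91.4, 107 and 119, H3K27me3 of 44.6 and 55.1 against 95.4 and 92.2, and a change of -1.98 (adjusted p = 0.194, mean of 20 H3K27me3 reads). HOXC9 and HOXC10, HOX genes used as markers of white fat, had balance changes of -0.62 and -0.79 (adjusted p = 0.625 and 0.482). H3K27ac at HOXC10 fell by 0.72 (adjusted p = 0.00066), from 345 and 303 to 180 and 213. H3K27ac fell at 9 of the 19 measured HOX genes and rose at none, against 10.3% and 19.5% of all bivalent genes measured. When an animal was left out there were 6 to 12 falls.

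**Figure D4:**
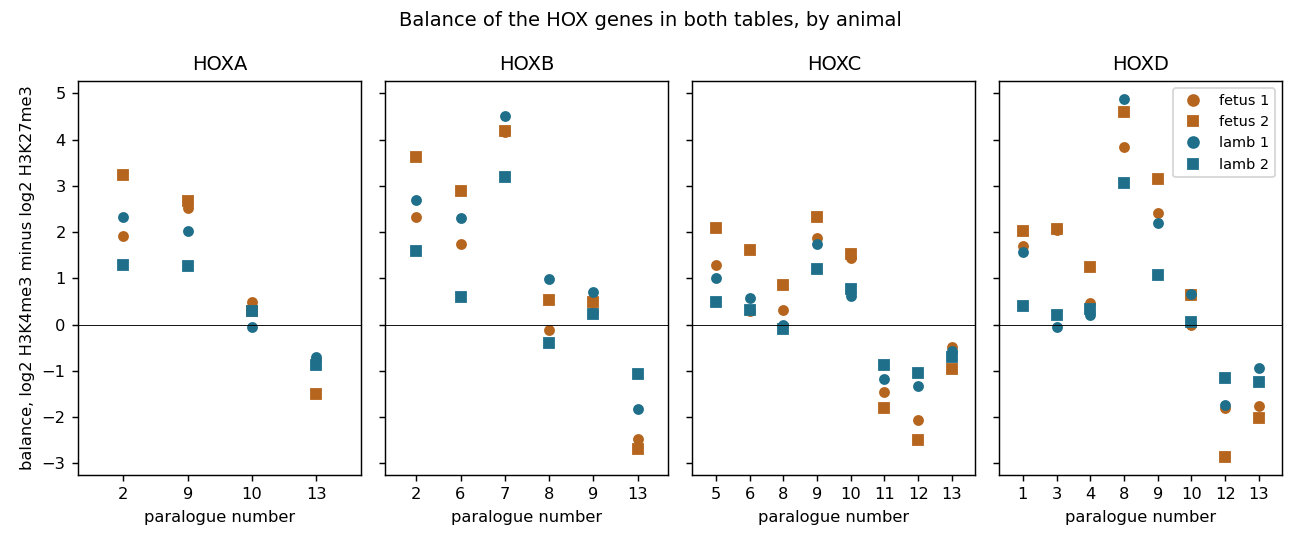
Balance (vertical, log2) of the 26 bivalent HOX genes in each animal, ordered by paralogue number within clusters A to D. Genes numbered 11 to 13 lie below 0, with both lambs above both fetuses at 5 of 7, and at 10 of the 19 genes numbered up to 10 both lambs lie below both fetuses.

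Holding both marks in both stages was favoured by the choice of the genes highest in both. They were ranked by their mean over fetuses and lambs together. By the smaller of their percentiles in the 2 marks the leading 8 were PAX9, ISL1, ISL2, SLITRK5, CYP26A1, VGLL2, PROX1 and TMEFF2, regulators of organ and nerve development and, for CYP26A1, the enzyme that clears retinoic acid. PAX9 had H3K4me3 of 1113 and 729 in the fetuses and 778, 605 and 567 in the lambs, and H3K27me3 of 1154 and 1021 against 842 and 760. ISL1 had H3K4me3 of 1182 and 1080 against 713, 522 and 602, and H3K27me3 of 730 and 836 against 474 and 549. H3K27me3 was called lower at 7 of the 8 (against 26.2% of all bivalent genes), CYP26A1 being the exception (adjusted p = 0.0557). The call held in 4 of 4 fits without an animal at ISL2, PROX1 and SLITRK5. The balance changes of the 8 lay between -0.49 and 0.22. A wider group of 236 genes (6.70%) was chosen as those above the table median of both marks in all 4 animals. H3K27me3 fell at 137 of these (58.1%, against 26.2% of all bivalent genes), or at 41 to 147 with an animal left out and 92 after TMM scaling. Their median H3K27me3 percentile was 77.7, as the choice asks for high values. H3K4me3 rose at 1 and fell at 2 (against 19.8% and 0.539% of all bivalent genes), and the median balance change was -0.32.

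Of 36 genes of brown fat and thermogenesis, 16 were bivalent, none passed the balance test, and 4 were higher and 3 lower without overlap, near the shares of 27.6% and 16.6% over all bivalent genes. UCP1, the uncoupling protein of brown fat, carried much H3K27me3 in both stages (408 and 356 units in the fetuses, 453 and 488 in the lambs). Its H3K4me3 was 586 and 710 in the fetuses and 292, 316 and 313 in the lambs. Its balance went from 0.52 and 0.99 to -0.63 and -0.62, a change of -1.39 (SE 0.47, unadjusted p = 0.003 and adjusted p = 0.176 by limma), and neither mark was called alone (adjusted p = 0.222 and 0.959). H3K27ac at UCP1 fell by 0.98 (adjusted p = 6.72e-05). PPARGC1A, PRDM16, DIO2, EBF1, EBF2, TBX1, NR2F2, WNT10B and ASPA, also looked for, were not in both tables.

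Of 45 genes of white fat and adipocytes, 12 were bivalent. None passed, 7 were lower and 2 higher without overlap (against 16.6% and 27.6% of all bivalent genes), and the median change was -0.60, which was 0.26 when scaled to all promoters, 0.14 after cyclic loess and 0.24 with equal spread. PLIN1 (-1.80) and PLIN5 (-1.46), both coat proteins of lipid droplets, led the list, and H3K27ac fell at 4 of the 12 (against 10.3% of all bivalent genes measured, and 2 to 5 with an animal left out), among them the lipase LPL and the glucose transporter SLC2A4. The leptin gene LEP, the hormone of white fat stores, did not separate the stages: H3K4me3 of 222 and 275 against 221, 253 and 214, H3K27me3 of 475 and 450 against 378 and 422, and a balance change of 0.15 (SE 0.46). The median H3K4me3 level of the list was at percentile 79.9 of the bivalent genes.

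The remaining regulators of fat and mesoderm on the list had small balance changes, and 10 of 12 overlapped between the stages. TBX15, SHOX2, EN1, TCF21, TWIST1, BMP3, BMP4, BMP7, FGF21, DIO3, TBX5 and WT1 ranged from -0.78 for WT1 to 0.26 for TBX5, with adjusted p of 0.474 or more. BMP4, a growth factor of fat cell commitment, was rich in H3K4me3 (1659 and 2510 in the fetuses, 1453, 672 and 854 in the lambs). TBX15, a T-box factor of the mesoderm, had H3K4me3 of 704 and 577 against 525, 480 and 481. H3K27ac rose at BMP3 by 1.06 (adjusted p = 0.0029, past the threshold in 2 of 4 fits without an animal), with a balance change of 0.12 (adjusted p = 0.934).

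Of the bivalent genes on the lists of other cell types, none passed the balance test. Their counts without overlap are read against 27.6% higher and 16.6% lower over all 3522 genes. Of the macrophage list 5 of 24 were bivalent and 3 were higher without overlap, led by the complement gene C1QA, with H3K4me3 of 87.5 and 108 in the fetuses and 157, 286 and 199 in the lambs (balance change 1.05, adjusted p = 0.289). Of the lymphocyte list 9 of 25 were bivalent, 2 higher and 0 lower, and H3K4me3 rose at 3 (against 19.8% of all bivalent genes), or at 0 without fetus 2, lamb 2 or lamb 3. Summarised as the list's median H3K4me3, macrophage genes had 91.2 and 164 in the fetuses and 157, 244 and 205 in the lambs, and lymphocyte genes 92.7 and 115 against 200, 159 and 162. These genes also had low H3K4me3 (median percentiles 28.7 and 22.0). Endothelial genes (7 of 22) had H3K27me3 falls at 5 (against 26.2% of all bivalent genes), but at 2 without fetus 1, 1 without fetus 2 and 3 after TMM scaling, while EGFL7 was not among these and had a balance change of -1.99 (adjusted p = 0.177). Stromal and preadipocyte genes (17 of 35) had 1 higher and 5 lower. The adrenal (4), mesothelial (6), kidney (8), skeletal muscle (9), smooth muscle (7) and neural (8) lists had 0 to 3 genes higher and 0 to 2 lower. The part of cell composition in the balance was not tested.

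Of 87 genes of the WNT, FGF, BMP and hedgehog pathways, 49 were bivalent, 8 were higher and 10 lower without overlap, and H3K27me3 fell at 16 (against 27.6%, 16.6% and 26.2% of all bivalent genes). The 16 falls became 3 without fetus 1, 0 without fetus 2 and 4 after TMM scaling. Neuronal channels and transmitter receptors gave 47 bivalent genes, with 12 higher, 9 lower and H3K27me3 falls at 15, all near the shares over all bivalent genes. The 15 falls became 4 without fetus 1, 2 without fetus 2 and 8 after TMM scaling. Of the subunits of the Polycomb and trithorax complexes themselves, 5 of 47 were bivalent, with 1 higher and 1 lower. Imprinted genes (7 of 25) had no call in either mark, and cell cycle genes (11 of 30) had 2 higher and 2 lower.

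**Figure D5:**
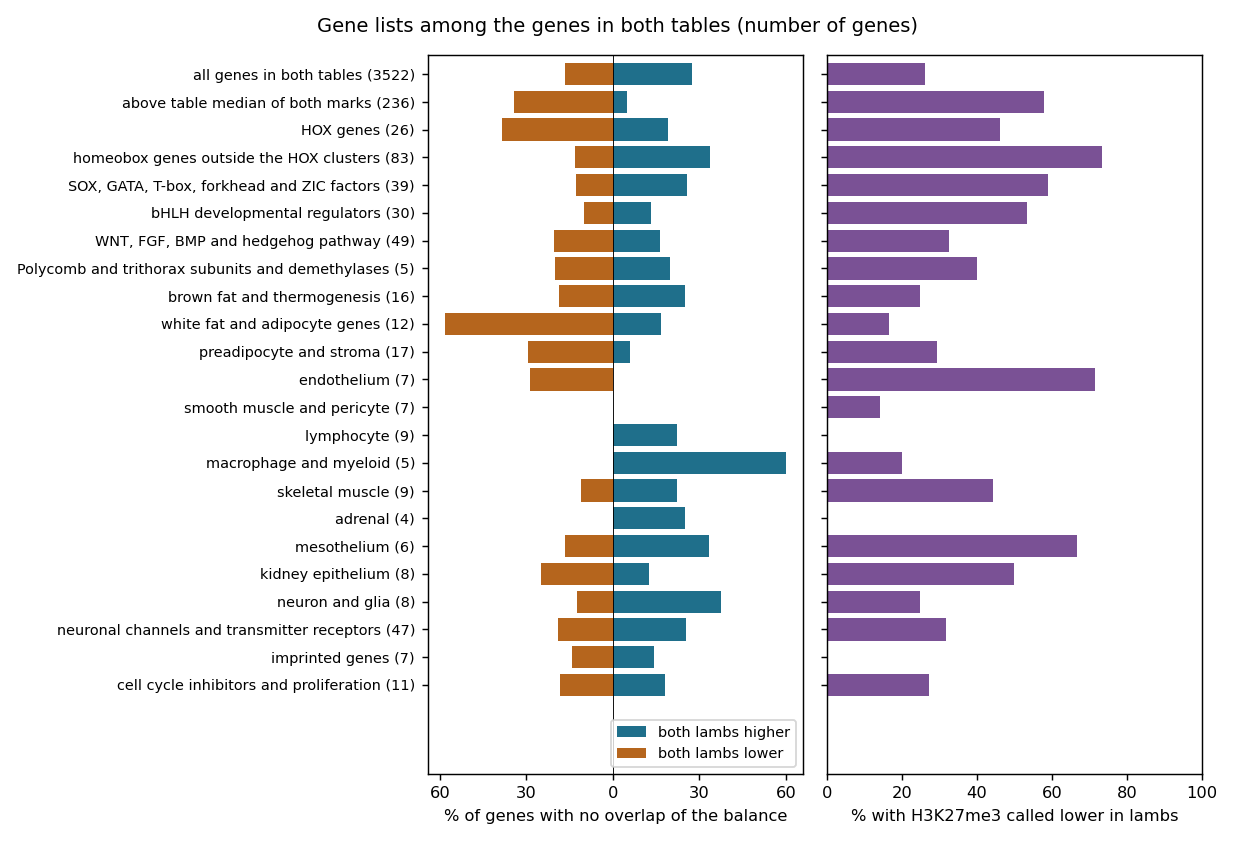
Share of each list's bivalent genes (number in brackets) whose balance did not overlap between stages, lambs higher to the right and lower to the left (left panel), and share with H3K27me3 called lower in lambs (right panel). Homeobox genes outside the HOX clusters have H3K27me3 falls at 61 of 83, against 26.2% of all 3522 genes, and a high H3K27me3 level (median percentile 89.8).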

How the data were processed

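The genes and lists were chosen with earlier results of these data known. The submitters' processing notes list CLC Genomics Workbench 7.0, MACS, edgeR and bedtools 2.19.0 as tools, with no step given for any of them, and Oar_v3.1 as the genome build. Libraries were read on 2 sequencer models, per the labels, which do not tie a library to either. The values in the authors' deposited promoter tables are a scaled signal per gene: each library's values are whole multiples (within 0.02) of its own step, taken as 1 read. Neither the factor behind this scaling nor the width of a promoter is stated. No input was subtracted, and the peak tables were not used here.

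For the balance, each library was divided by its median over the 3522 genes and multiplied by the mean median of its mark, and 1 was added before the log2. The difference of the marks was taken within each animal and tested for stage with limma 3.58.1 in R 4.3.3, with a variance trend on the H3K27me3 level. Each mark was tested with limma's trend method on log2(value + 1) over its whole table, scaled to the table's median, with all 5 H3K4me3 libraries. P-values were adjusted by Benjamini-Hochberg, threshold 0.05. Permuting 2 against 2 animals exactly gives p = 0.333 at best, whereas limma draws on the spread of all genes. The deposited signal has low depth in H3K27me3, so that values under about 30 reads are imprecise. The tests were checked on simulated data.

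Named genes are those past the threshold, then by smallest unadjusted p up to 6 per direction among genes with a symbol, at least 30 mean H3K27me3 reads and no overlap, then 30 fixed genes of fat and development, and the 8 highest in both marks. Other genes were named after their values were seen. Some of these genes are not reported here. Of the 2633 symbols, 2284 were found in the RefSeq table of ARS-UI_Ramb_v3.0. A blank line of the H3K27me3 table was left out. Replicate numbers do not pair animals across stages. Alternatives were other scalings, pseudocounts, filters and fits, and leaving out each animal.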

Additional observations from a re-analysis of the deposited data

How the results depend on the processing

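The number of genes with a called balance change (2) was 85 when scaled to all promoters, 11 after TMM, 27 in unscaled values, 1 after cyclic loess, 6 with at least 30 mean reads in both marks, 1 with the 8 libraries fitted separately and 43 with equal spread per mark (added after seeing the data). It was 0 when 1 was added after division by the median (373 genes at an unadjusted p under 0.05 in limma) and 0 with lamb 3 added as a library (608), and 1 to 5 when an animal was left out. The cause of these differences was not tested. Genes without overlap were 2202 higher and 96 lower when scaled to all promoters, and 346 and 1092 unscaled. ENSOARG00000010694 passed in 16 of 18 alternatives (adjusted p 0.418 and 0.0585 in the others, with 1 added after division and with lamb 3) and GSN in 9 of 18. Of 90 genes followed across the alternatives, 56 had a balance change of at least 1, and 1 of these (FGF4, 1.17 against -0.22 after cyclic loess and -0.67 with equal spread, adjusted p = 0.907 and 0.493) changed sign under any alternative. Smaller changes turned more often, in 31 genes in all.

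Leaving out a library gave 14 to 5747 promoters for H3K4me3 (main 1671), 248 to 1470 for H3K27me3 (1152) and 1393 to 5783 for H3K27ac (3961). Among bivalent genes the ranges were 7 to 1379 higher and 1 to 220 lower in H3K4me3, 2 to 54 higher and 217 to 1080 lower in H3K27me3, and 36 to 734 higher and 96 to 269 lower in H3K27ac. After TMM, 52 were higher and 533 lower in H3K27me3. Genes with H3K4me3 higher and H3K27me3 lower (108) numbered 42 after TMM and 0 to 174 without a library.

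Animals with the same replicate number do not come from a pair, and their deviations from the stage mean correlated at -0.42 across genes. With the number as a replicate block, 1 balance change was called. H3K4me3, with lamb 3 left out, gave 6 promoters, with 4 bivalent genes higher and 0 lower (limma, 955 promoters at an unadjusted p under 0.05). H3K27me3 gave 50 bivalent genes higher and 1060 lower (main 30 and 924), and the combined pattern was found at 0. The planned edgeR test on recovered reads was not run. H3K27me3 depth limits all balances: the median bivalent gene had 45 to 62 reads per library.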
